A study of Mus musculus with 35 samples.

Results

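The mouse mitochondrial genome encodes 37 genes: 13 messenger RNAs for subunits of the respiratory chain and ATP synthase, 2 ribosomal RNAs and 22 transfer RNAs. They were taken from the gene tables as every gene whose symbol, matched by its Ensembl identifier, starts with mt-. That rule found 37 of the 54752 genes in the tables, and uses no measured value. Of these, 15 (the 13 messenger RNAs and both ribosomal RNAs) had counts and all 15 passed the filter on low values, while the 22 transfer RNAs had no count in any library.

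Mitochondrial DNA is a small circle present in many copies per cell, transcribed from both strands by its own RNA polymerase, Polrmt, with the packaging factor Tfam. The long primary transcripts are cut at the transfer RNA genes that punctuate them, and the released messenger RNAs receive short poly(A) tails and are held stable by proteins such as Lrpprc. Their products sit in complexes I, III, IV and V beside subunits encoded in the nucleus, so both genomes have to be expressed for respiration. Somatic cells such as fibroblasts respire, and cells reprogrammed to pluripotency are known to shift towards glycolysis.

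RNA was sequenced from 35 libraries of passage 2 mouse embryonic fibroblasts (embryonic day 13.5, from Oct4-GFP males of CBA/CaJ × C57BL/6J background and females of a 129 strain) that were being reprogrammed. The arm called JEGS received retroviruses for the transcription factors Jdp2, Esrrb, Glis1 and Sall4, and each of the 4 leave-out arms received 3 of these factors, lacking Esrrb, Glis1, Jdp2 or Sall4. All arms share the fibroblast source, 48 hours of infection and the iCD3 induction medium with Rock inhibitor, and no uninfected cells are among these libraries. Each leave-out arm has 8 libraries, 1 for each of days 0 to 7, and JEGS has 3 libraries, from days 2, 4 and 6.

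Each arm and day is 1 library, and whether libraries came from separate cultures is not stated. In the fits, the days of an arm stand in for repeats of that arm. Each p-value therefore rests on the spread of these libraries around the fitted day courses, which may be technical. It does not measure the spread between repeated infections. Depth ran from 1266379 to 3608456 counts per library with a median of 1973102, and 1 count was worth 0.277 to 0.79 CPM (counts scaled to a common library total). Each leave-out arm had lost its own factor, with edgeR log2 differences from the other 3 arms of -7.99 for Esrrb, -8.09 for Glis1, -6.25 for Jdp2 and -10.07 for Sall4. A treatment label that lists the whole factor set for every sample goes against the titles, which were followed. The labels name 2 library kits without assigning them, and the names of the JEGS tables carry a repeat tag that the leave-out tables lack, so kit, run and arm cannot be told apart. The fibroblast markers Col1a1, Col1a2, Thy1, Pdgfra and Vim were present in every arm, with a summed level per library between 1002 and 16770 CPM. This level was not steady within an arm. Its medians were 1499, 1558, 2410 and 2243 CPM without Esrrb, Glis1, Jdp2 and Sall4. The highest values in the same order were 11500, 12890, 14270 and 16770 CPM. JEGS, from days 2, 4 and 6 only, ranged from 1090 to 1703 CPM.

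Stretches of mouse mitochondrial DNA also exist as copies in the nuclear genome, and 7 annotated pseudogenes on chromosome 1 bear on everything that follows. They lie side by side on the minus strand of the mm10 genome, from Gm28439 at chr1:24611535-24612410 to Gm29216 at chr1:24615706-24616197. Gm28661 (a copy of mt-Co2), Gm10925 (mt-Atp6), Gm28437 (mt-Co3), Gm10222 (mt-Nd4l) and Gm28439 (the first 876 bases of mt-Nd4) match their mitochondrial gene at every base they cover. Gm28438 differs from mt-Nd3 at 1 base and Gm29216 from mt-Co1 at 6 of 492 bases. These sequences, from the GENCODE vM21 transcripts of this build, are given because they hold the bases at which a gene and its copy differ within or at the end of the copied stretch. For mt-Co1 the copy covers bases 1054 to 1545 of 1545, so the earlier bases also tell the gene from its copy. Capitals mark bases that the copy lacks or that differ, read 5′ to 3′.
mt-Co2, bases 655 to 684: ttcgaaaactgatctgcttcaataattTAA
Gm28661, bases 655 to 681: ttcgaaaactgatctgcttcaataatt
mt-Co3, bases 755 to 784: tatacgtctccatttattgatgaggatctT
Gm28437, bases 755 to 783: tatacgtctccatttattgatgaggatct
mt-Co1, bases 1054 to 1083: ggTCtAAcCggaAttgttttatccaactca
Gm29216, bases 1 to 30: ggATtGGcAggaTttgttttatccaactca
mt-Nd3, bases 1 to 30: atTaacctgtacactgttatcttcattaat
Gm28438, bases 1 to 30: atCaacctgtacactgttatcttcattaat

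The copies of mt-Co2, mt-Atp6, mt-Nd3 and mt-Nd4l stop 3 bases short of the mitochondrial gene, and the copy of mt-Co3 stops 1 base short. The mt-Co1 differences, counted from the first base of the mitochondrial gene and written with its base first, are T1056A, C1057T, A1059G, A1060G, C1062A and A1066T, all in the first bases of the copy. The mt-Nd3 difference is T3C. A read from inside these stretches that covers none of these differences fits both loci equally. The counting program divides such reads by estimation.

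The division was lopsided and varied between libraries. For mt-Co2, the second subunit of cytochrome c oxidase, a median of 100% of the pair's counts stood under Gm28661 (lowest 95.7%), and mt-Co2 itself was at 0 in 21 of 35 libraries. Gm10925 held 83.9% to 100% of the counts shared with mt-Atp6, a subunit of ATP synthase that was at 0 in 8 libraries. Gm28437 held 56.6% to 100% of the counts shared with mt-Co3, another oxidase subunit. The split of mt-Co1, the catalytic subunit of the oxidase, was steadier, with 13.1% to 19.7% under Gm29216. For mt-Nd4l, a small complex I subunit, the share under Gm10222 ran from 0% to 77.4%, and for mt-Nd3 the share under Gm28438 ran from 0% to 68.5%. Gm28439 had no count in any library, so mt-Nd4 kept all of its counts.

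**Figure D1:**
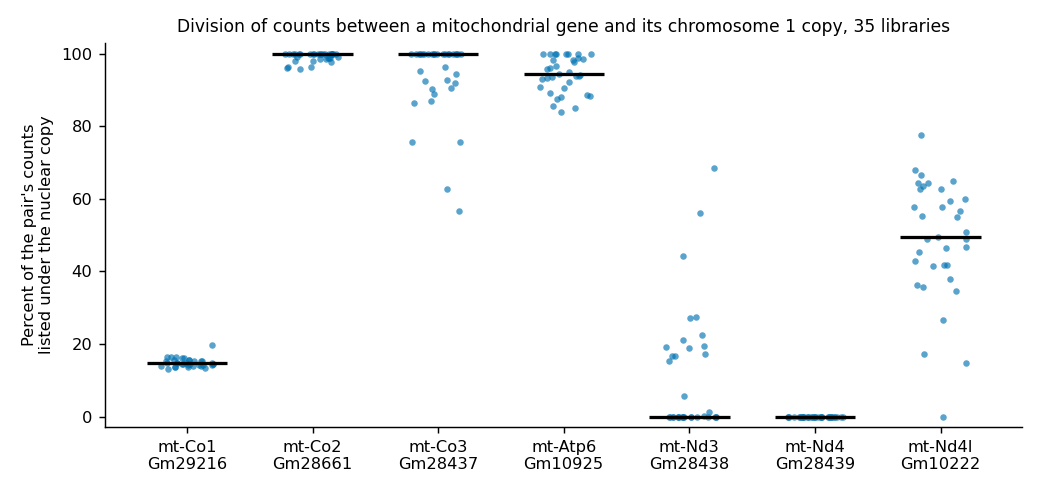
Percent of the counts of a mitochondrial gene and its chromosome 1 copy (named under each gene) that the deposited tables list under the copy, 1 point per library (35 libraries), with the median as a bar. The medians of mt-Co2, mt-Co3 and mt-Atp6 are 100%, 100% and 94.4%, mt-Co1 has 14.6%, mt-Nd4 is at 0%, and mt-Nd3 and mt-Nd4l vary widely between libraries.

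Because of this, mt-Co2, mt-Co3 and mt-Atp6 as deposited cannot be read as levels of these transcripts. The 2 genes named as markers of the group differ in this respect: mt-Co1 had at least 7908 counts in every library, while mt-Co2 had at most 647. Values below are given as deposited and, for the 7 genes with a copy, also as the sum of gene and copy, an alternative chosen after seeing the data. Such a sum counts any RNA from the nuclear copy as mitochondrial, and these counts cannot separate the sources.

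Levels can be compared between genes only per length, in TPM, which divides counts by transcript length before scaling. Among genes with no copy that holds counts, and leaving out mt-Atp8 for its short length, mt-Cytb, the cytochrome b of complex III, had the highest median TPM over the 35 libraries at 8446 (range 3946 to 13080). mt-Nd1, a complex I subunit, followed at 8086 (range 3832 to 12460), and these ranges overlap almost entirely. mt-Nd4 (4835) and mt-Nd2 (4779), both of complex I, were next and not distinguishable by their ranges, then mt-Nd5 (3623) and mt-Nd6 (3393). The ribosomal RNAs were far lower, with a median TPM of 687 for mt-Rnr2 and 415 for mt-Rnr1. The labels name kits for messenger RNA, and how far the selection of RNA in the kits sets the ribosomal RNA level was not tested.

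mt-Atp8, an ATP synthase subunit of 204 bases, had a listed median TPM of 29751, the highest of the 37 genes. Its effective length, the number of positions where a fragment can start, was only 17.5 to 22.1 bases, because fragments averaged 198.6 to 212.3 bases. The last 43 bases of mt-Atp8 are also the first 43 of mt-Atp6, at chrM:7927-7969. The mean fragment was longer than this stretch, and whether any fragment fitted both genes was not tested. That shared stretch is printed because it is 43 of the 204 bases of mt-Atp8.
mt-Atp8 and mt-Atp6, shared bases: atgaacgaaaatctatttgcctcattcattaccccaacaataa
The TPM of mt-Atp8 is therefore set by a short length estimate, and its differences between libraries are given here in CPM. The 22 transfer RNA genes are 59 to 75 bases long and had an effective length of 0 in every library, so their level was not measurable in these tables, and no transfer RNA gene can be ranked above another. mt-Nd6, encoded on the strand opposite to all other members with counts, overlaps mt-Nd5 by 14 bases. Whether the counting used strand is not given in the sources used here, so reads of mt-Nd6 and of RNA antisense to it cannot be told apart.

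The share of all counts that fell on the 37 genes was higher in the arms without Glis1 and without Sall4 than in the arms without Esrrb and without Jdp2. In the arm without Glis1 it was 2.74% at its lowest (day 0), 5.29% at the median and 6.07% at its highest (day 3). Without Sall4 the share was 1.88% on day 0, 4.99% at the median and 5.50% on day 4. Without Esrrb it was 1.61% on day 0, 3.23% at the median and 3.64% on day 3, and without Jdp2 it was 1.70%, 3.31% and 3.56%, with the highest on day 5. The JEGS libraries held 4.47%, 5.13% and 4.17% on days 2, 4 and 6, between the 2 higher and the 2 lower arms on each of these days. The 95% Wilson interval of the shallowest library, JEGS on day 2, ran from 4.43% to 4.51% and covers counting error only.

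Adding the nuclear copies raised the mean share to 7.21% ± 1.58 (SD, n = 8) without Glis1, 6.36% ± 1.81 without Sall4, 4.33% ± 0.81 without Esrrb and 4.36% ± 0.89 without Jdp2. JEGS, from days 2, 4 and 6 only, came to 6.55% ± 0.79 (n = 3). On those 3 days the means were 7.92% without Glis1, 7.22% without Sall4, 4.66% without Esrrb and 4.86% without Jdp2. The means without Glis1 and Sall4 were above those without Esrrb and Jdp2 with and without the copies. These SDs include the change over days.

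**Figure D2:**
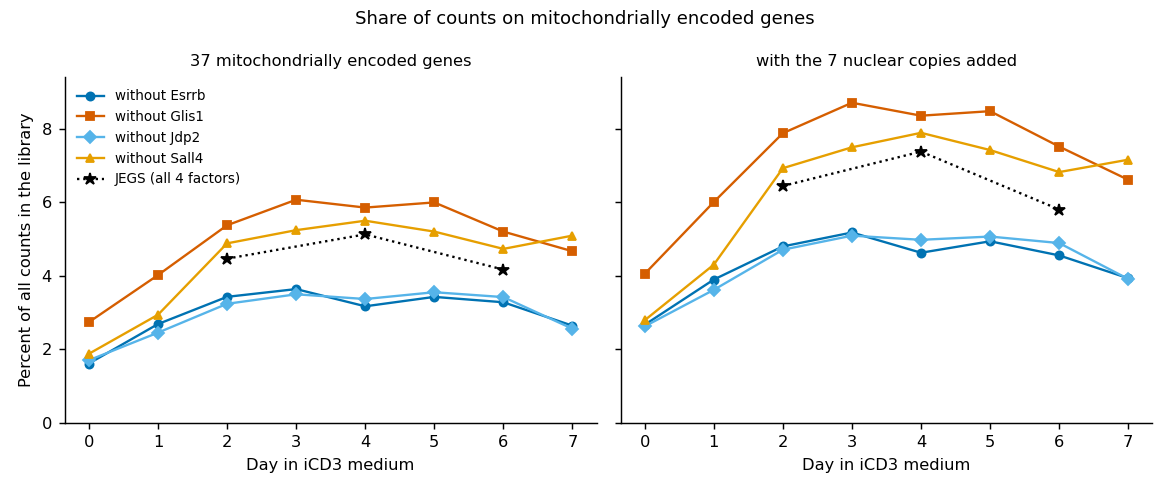
Percent of all counts in each library on the 37 mitochondrially encoded genes (left) and with the 7 nuclear copies added (right) by day, 1 point per library and 1 line per arm. The arms without Glis1 and without Sall4 end at 4.67% and 5.10% on day 7 in the left panel, the arms without Esrrb and Jdp2 at 2.64% and 2.56%, and JEGS lies between the pairs.

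Each leave-out arm was then compared with the mean of the other 3 (32 libraries, day as a factor), which asks whether lack of one factor goes with another level of mitochondrial RNA. Without Esrrb, 12 of the 15 tested members were lower and none higher, beside 21.9% of all 18135 genes tested that were lower and 20.9% higher, with a median log2 difference of -0.56 over the members and -0.01 over all genes. Without Jdp2, 9 of 15 were lower and none higher, beside 9.13% of all genes lower and 14.4% higher, with a median of -0.54. Without Glis1, 9 of 15 were higher and none lower, beside 20% of all genes higher and 16.3% lower, with a median of 0.62. Without Sall4, 12 of 15 were higher and none lower, beside 22.3% of all genes higher and 19.5% lower, with a median of 0.54. These contrasts share their libraries and sum to 0 for each gene, so a high arm and a low arm are not separate observations.

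With the nuclear copies added the counts were 15 lower without Esrrb, 14 lower without Jdp2, 14 higher without Glis1 and 15 higher without Sall4. The members not called as deposited were mostly those whose reads were divided. mt-Co2, mt-Co3 and mt-Atp6 missed the threshold in all 4 contrasts as deposited and passed it in all 4 with their copy. As tested alone, 6 copies passed the filter. Of these, 5 were lower without Esrrb (21.9% of all genes) and 3 lower without Jdp2 (9.13%). Without Glis1 5 were higher (20% of all genes), and without Sall4 5 were higher (22.3%). The copies hold reads divided from the mitochondrial genes, so these calls are not separate observations.

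Complex I, which takes electrons from NADH, has 7 mitochondrially encoded subunits. mt-Nd1 ranged from 2248 to 4180 CPM (median 3438) without Esrrb, 2090 to 4273 (3602) without Jdp2, 3584 to 7727 (6193) without Glis1 and 2474 to 7026 (6615) without Sall4. The ranges overlap because every arm starts low on day 0, but on 8 of 8 days both higher arms were above both lower arms. Its edgeR log2 differences were -0.54 ± 0.09 (SE; adjusted p 3.8e-05) without Esrrb, -0.57 ± 0.10 (4.8e-05) without Jdp2, 0.59 ± 0.09 (4e-06) without Glis1 and 0.52 ± 0.09 (3.2e-05) without Sall4. mt-Nd2 gave -0.68 ± 0.11, -0.58 ± 0.11, 0.64 ± 0.10 and 0.62 ± 0.10 in the same order. mt-Nd4 and mt-Nd5 passed in all 4 contrasts, with log2 differences for mt-Nd5 of -0.63, -0.43, 0.51 and 0.54. Both also kept the order of arms on 8 of 8 days. The higher and lower arms were named from these same data, so such counts of days are description and not a test. As deposited, the order held on 0 days for mt-Co3, 1 for mt-Co2, 3 for mt-Atp6 and for mt-Nd4l, and 6 for mt-Nd3. With copies it held on 7 or 8 of 8 days for these genes.

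mt-Nd6, the light-strand member, gave -0.44 ± 0.11, -0.54 ± 0.10, 0.59 ± 0.10 and 0.40 ± 0.10, all past the threshold, and the order of arms held on 7 of 8 days. mt-Nd3 as deposited passed only without Esrrb (-0.50 ± 0.21, adjusted p 0.048, edgeR) and without Sall4 (0.61 ± 0.19). The call without Esrrb was lost in 29 alternative settings, among them DESeq2, limma, no day term and most omissions of a single library. With Gm28438 added the standard errors of mt-Nd3 fell to 0.11 or 0.12 and it passed in all 4 contrasts. mt-Nd4l as deposited was at -0.03 ± 0.19 without Glis1 and 0.00 ± 0.19 without Jdp2, and with Gm10222 added at 0.39 ± 0.09 and -0.29 ± 0.09, both past the threshold.

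mt-Cytb is the only mitochondrially encoded subunit of complex III, which passes electrons to cytochrome c. Its level was 2650 to 5324 CPM (median 4370) without Esrrb, 2976 to 5626 (4959) without Jdp2, 4670 to 10130 (7824) without Glis1 and 3405 to 7600 (6992) without Sall4. The lowest value of both lower arms was on day 7, and of both higher arms on day 0. The log2 differences were -0.55 ± 0.09, -0.34 ± 0.09, 0.62 ± 0.09 and 0.28 ± 0.09, with adjusted p of 1.6e-05, 0.0056, 1.2e-06 and 0.012 (edgeR), and the order of arms held on 8 of 8 days.

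Complex IV, cytochrome c oxidase, carries mt-Co1, mt-Co2 and mt-Co3 at its core. mt-Co1 with its copy ranged from 7478 to 13480 CPM (median 12080) without Esrrb, 8319 to 14220 (13090) without Jdp2, 11620 to 25510 (22040) without Glis1 and 9342 to 24120 (21610) without Sall4. On 8 of 8 days both higher arms were above both lower ones. As deposited the log2 differences of mt-Co1 were -0.56 ± 0.07, -0.39 ± 0.07, 0.54 ± 0.07 and 0.40 ± 0.07, and with the copy they were -0.55, -0.40, 0.56 and 0.39. Both versions passed in all 4 contrasts and differ from each other by less than their standard errors.

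For mt-Co2 with its copy the medians were 4427 CPM without Esrrb, 4948 without Jdp2, 7781 without Glis1 and 7805 without Sall4, and the log2 differences were -0.50, -0.38, 0.49 and 0.39, each ± 0.08. As deposited the same gene gave -2.76 ± 1.58 without Esrrb and 1.91 ± 1.16 without Glis1, neither past the threshold. Its deposited levels lay between 0 and 210.9 CPM over the 4 leave-out arms. mt-Co3 with its copy gave -0.51 ± 0.08, -0.29 ± 0.08, 0.42 ± 0.08 and 0.37 ± 0.08. As deposited it was at 0.48 ± 1.58 without Esrrb and -0.58 ± 1.52 without Sall4, the opposite sign in both.

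In complex V, ATP synthase, mt-Atp8 and mt-Atp6 are read from one messenger. mt-Atp8 was at 202.7 to 437.5 CPM (median 332.9) without Esrrb, 194.8 to 385.1 (327.8) without Jdp2, 414.1 to 818.4 (632.6) without Glis1 and 250.1 to 554.0 (501.8) without Sall4. Its difference was 0.82 ± 0.07 without Glis1 (adjusted p 9.9e-11, edgeR) and 0.18 ± 0.07 without Sall4 (0.038), and -0.46 and -0.55 without Esrrb and Jdp2. The arms without Glis1 and Sall4, compared directly, differed for mt-Atp8 by 0.48 ± 0.09 (adjusted p 7.8e-05). mt-Atp6 with its copy gave -0.48 ± 0.08, -0.44 ± 0.08, 0.61 ± 0.08 and 0.31 ± 0.08.

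mt-Rnr1 and mt-Rnr2 are the ribosomal RNAs of the small and large subunits of the mitochondrial ribosome. mt-Rnr1 was at 90.3 to 269.5 CPM (median 145.7) without Esrrb, 73.2 to 177.7 (154.6) without Jdp2, 109.4 to 768.0 (432.8) without Glis1 and 96.0 to 560.6 (437.4) without Sall4. The arms were close on day 0, at 85.6 to 109.4 CPM, and both higher arms were above both lower arms on 8 of 8 days. Its log2 differences were -0.81 ± 0.15, -1.02 ± 0.15, 0.99 ± 0.13 and 0.84 ± 0.14, all past the threshold and each larger in size than that of any messenger RNA with copies added. mt-Rnr2 passed without Esrrb (-0.94 ± 0.15) and without Sall4 (1.01 ± 0.13), with 0.31 ± 0.14 (adjusted p 0.072) without Glis1 and -0.38 ± 0.14 (0.052) without Jdp2. Its median was 361.1, 492.5, 772.8 and 1242 CPM in the arms without Esrrb, Jdp2, Glis1 and Sall4.

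**Figure D3:**
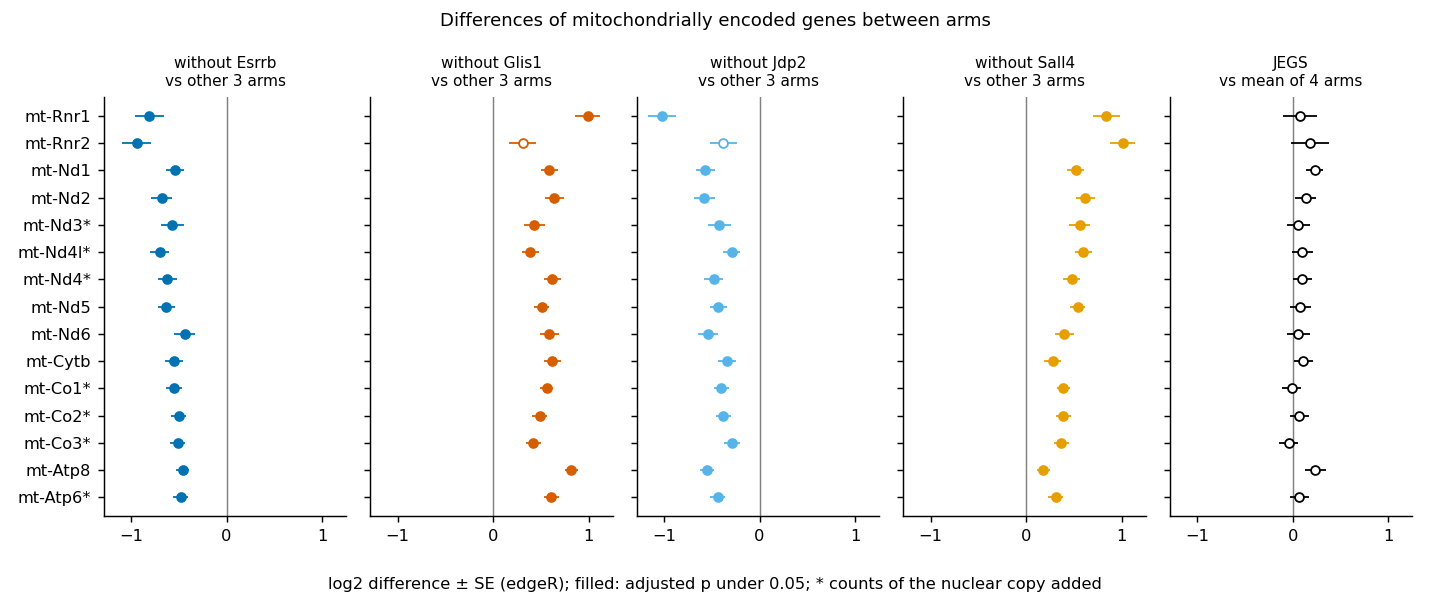
edgeR log2 difference ± SE for the 15 tested genes in each leave-out arm against the other 3 (days 0 to 7, 8 libraries per arm) and in JEGS against the mean of the 4 arms (days 2, 4 and 6), with filled points at adjusted p under 0.05 and nuclear copy counts added for genes with a star. Points lie left of 0 without Esrrb and Jdp2, right of 0 without Glis1 and Sall4, and near 0 for JEGS.

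Pairs of arms, added after seeing the data, showed which arms could be separated. Without Esrrb against without Jdp2, none of the 15 members differed by edgeR, as deposited or with copies, beside 22% of all genes that differed in either direction (1 member as deposited and 2 with copies at an unadjusted p under 0.05). The largest standard error with copies was 0.18, for mt-Rnr1 (0.16 ± 0.18), and mt-Nd4l with its copy came nearest to the threshold (-0.30 ± 0.11, adjusted p 0.054). Without Glis1 against without Sall4, mt-Atp8 was higher (16.2% of all genes) and mt-Rnr2 lower (15.9% of all genes; -0.52 ± 0.17, adjusted p 0.02), and 13 did not pass. The other 4 pairs, each of a higher and a lower arm, gave 11 of 15 lower for Esrrb against Glis1 (22.8% of all genes lower), 12 lower for Esrrb against Sall4 (24.8%), 10 higher for Glis1 against Jdp2 (17.3%) and 11 lower for Jdp2 against Sall4 (17%). With the copies added it was 15 of 15 in each of these 4 pairs. mt-Rnr1 showed a difference of 1.51 ± 0.18 between the arms without Glis1 and without Jdp2.

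JEGS, with the whole factor set, was compared on days 2, 4 and 6. Against the mean of the 4 leave-out arms none of the 15 members passed, by edgeR, as deposited or with copies, beside 4.06% of 16603 genes in either direction, and the median member difference was 0.10. At an unadjusted p under 0.05 it was 3 as deposited and 2 with copies. The DESeq2 Wald test called 3 as deposited, all higher: mt-Nd1 and the divided genes mt-Co2 and mt-Nd4l. In JEGS, mt-Co2 as deposited was at 0 on days 2 and 6. mt-Nd1 came to 5904, 5959 and 4873 CPM on days 2, 4 and 6 in JEGS, against 3532, 3537 and 3343 without Esrrb and 6593, 7026 and 5946 without Sall4. JEGS lay between those arms on each of the 3 days. mt-Co1 with its copy showed the same placing, at 16877, 18586 and 14655 CPM in JEGS.

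Against single arms, JEGS was higher than the arm without Esrrb in 9 of 15 members (4.04% of all genes higher), among them mt-Nd1 (0.69 ± 0.12, adjusted p 0.0023) and mt-Nd4 (0.65 ± 0.13, 0.0055). Against the arm without Jdp2, 3 of 15 were higher (0.819% of all genes): mt-Nd1 (0.63 ± 0.12), mt-Atp8 (0.62 ± 0.14) and mt-Nd2 (0.55 ± 0.14). Against the arm without Glis1, mt-Co1 (-0.45 ± 0.12) and mt-Nd4 (-0.40 ± 0.13) were lower and mt-Nd4l higher as deposited (10% of all genes lower, 9.86% higher). The mt-Nd4l difference was 0.79 ± 0.22 as deposited and -0.13 ± 0.14 (adjusted p 0.54, edgeR) with its copy. With copies added, 4 of 15 members were lower in JEGS than without Glis1 and 0 higher. The joined counts were 12 higher against the arm without Esrrb and 3 higher against the arm without Jdp2. Against the arm without Sall4 none passed as deposited (8 at an unadjusted p under 0.05; 23.8% of all genes in either direction, 11.9% lower), and mt-Co1 (-0.35 ± 0.12, adjusted p 0.049) and mt-Co3 (-0.39 ± 0.13) were lower with copies. The JEGS comparisons share the 3 JEGS libraries.

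Over time mitochondrial RNA rose during the first days and then levelled or fell. On day 3 against day 0, 12 of 15 members were higher and none lower across the leave-out arms, beside 13.7% of all genes higher and 10.8% lower, with a median log2 difference of 1.07 where the median of all genes was 0.11. With copies, 15 of 15 were higher. The rise was 1.48 ± 0.15 for mt-Nd5, 1.45 ± 0.18 for mt-Nd2, 1.23 ± 0.25 for mt-Rnr1, 1.06 ± 0.16 for mt-Nd1 and 0.99 ± 0.13 for mt-Co1, and with copies added it was 0.79 ± 0.14 for mt-Atp6 and 0.81 ± 0.14 for mt-Co2 and for mt-Co3, the 3 lowest of the 15. All 4 arms had more mt-Nd5 on day 3 than on day 0.

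The rise came early: 8 of 15 members were higher than on day 0 by day 1 (7.59% of all genes) and 12 by day 2 (11.8%). By day 7, 10 of 15 were higher than on day 0 (15.9%), mt-Rnr1 by 1.69 ± 0.26 and mt-Nd1 by 0.49 ± 0.16. One of the 10 is mt-Co3 as deposited, whose value (13.27 ± 4.65) starts from counts near 0 and was 0.50 ± 0.14 with its copy. Between days 5 and 7 no member passed by edgeR (7 of 15 at an unadjusted p under 0.05), and no gene of all 18135 did (0% called; 1155 genes at an unadjusted p under 0.05), while the median member difference was -0.49.

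A straight line over days 0 to 7 described this course poorly. A common slope was called for 4 of 15 members, all upward (15.4% of all genes higher): mt-Rnr1 at 0.21 ± 0.03 log2 units per day, mt-Rnr2 at 0.15 ± 0.04, mt-Co1 at 0.10 ± 0.02 and mt-Nd2 at 0.10 ± 0.04. The other slopes lay between 0.03 and 0.09 for undivided members: mt-Cytb 0.03, mt-Nd1 0.05, mt-Atp8 0.06, mt-Nd4 0.07, mt-Nd6 0.08 and mt-Nd5 0.09, none past the threshold. Over days 3 to 7 alone, 8 members had a downward slope past the threshold and 1 an upward one, with mt-Cytb at -0.16 (adjusted p 0.00015, edgeR). The share of all genes called over days 3 to 7 was not worked out, so these counts have no background beside them. The count over all days depended on single libraries. mt-Nd2 was close to the threshold (adjusted p 0.0495, edgeR), and the count was 3 on leaving out any one of 23 of the 32 libraries. It was 9 without the day 7 library of the arm lacking Jdp2, 8 without that of Glis1, 7 without the day 2 library of Sall4, and 6 without the day 7 library of either Esrrb or Sall4.

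Slopes differed between arms for 1 member. mt-Co2 as deposited had a slope in the arm without Esrrb that was lower than in the others by -2.87 ± 0.84 per day (adjusted p 0.035; 3.95% of all genes lower), and with its copy no slope difference passed. In that arm mt-Co2 was above 0 in 1 library only, day 1. The call was lost on leaving out the day 1 library, any one of days 3 to 7 of that arm, or the day 6 library of the arm lacking Jdp2. In the arms without Glis1, Jdp2 and Sall4 no slope differed by edgeR (3.55%, 0.127% and 1.84% of all genes in either direction). At an unadjusted p under 0.05 it was 0, 1 and 0 members, and the DESeq2 Wald test called 1 without Jdp2. The widest differences there were in divided genes: mt-Co3 (1.02 ± 0.91) and mt-Nd3 (-0.14 ± 0.11) without Glis1, mt-Co2 (2.52 ± 0.76, adjusted p 0.2) and mt-Atp6 (-0.19 ± 0.38) without Jdp2, and mt-Co3 (-0.77 ± 0.71) and mt-Co2 (0.26 ± 0.67) without Sall4.

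**Figure D4:**
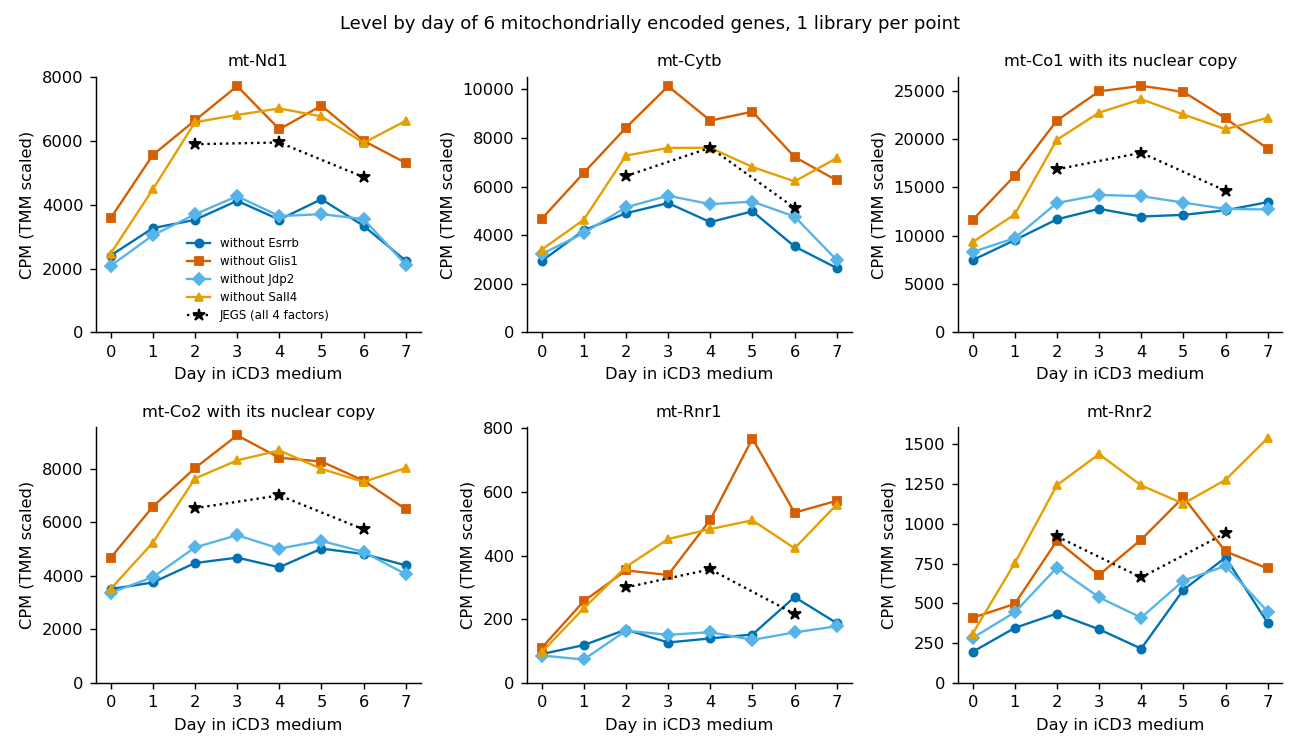
CPM (scaled with TMM) by day for mt-Nd1, mt-Cytb, mt-Co1 and mt-Co2 with their nuclear copies, mt-Rnr1 and mt-Rnr2, 1 point per library and 1 line per arm. Every course of the leave-out arms is higher on day 3 than on day 0, and the day of the highest value differs between genes and arms. mt-Rnr1 reaches 768.0 CPM on day 5 without Glis1 and 560.6 on day 7 without Sall4. From day 6 to day 7 mt-Nd1 goes from 3343 to 2248 CPM without Esrrb, where mt-Co1 with its copy goes from 12636 to 13479.

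Within the mitochondrial counts, copies included, the share of mt-Co1 stood apart on day 7 of 2 arms, a feature chosen after its values were seen and not tested. mt-Co1 made up 30.3% of the mitochondrial counts on day 6 and 36.8% on day 7 without Esrrb, and 27.6% and 34.9% without Jdp2. In the same steps mt-Nd1 went from 8.01% to 6.13% and from 7.67% to 5.83%, and mt-Nd2 without Esrrb from 5.37% to 3.42%, close to its 3.53% on day 0. Without Glis1 and Sall4, mt-Co1 stood at 29.5% and 28.4% on day 7, within the 25.9% to 29.9% range of these arms over all days. Each of the 2 shifted values is 1 library.

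Called nuclear subunits of the same complexes moved in the direction of the mitochondrial genes, with 1 exception without Glis1 (a complex I subunit), and with most of the listed subunits called in the arms without Esrrb and Sall4 and fewer in the other arms. The shares of all genes called, given above for each arm, are repeated beside the counts. Without Esrrb (21.9% of all genes lower), 29 of 35 nuclear complex I subunits, 9 of 9 of complex III, 11 of 11 of complex IV and 14 of 15 of complex V were lower, with none higher and list medians between -0.55 and -0.48. Cox5a, a complex IV subunit, was lowest at -1.53 ± 0.14 (88.2 CPM against 260.9), and the complex V subunit Atp5g1 was at -0.96 ± 0.12. Without Sall4 (22.3% of all genes higher), 31 of 35, 9 of 9, 11 of 11 and 12 of 15 were higher, with none lower, led by Ndufb6 of complex I (1.53 ± 0.15) and Cox6a1 of complex IV (1.19 ± 0.14).

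Without Glis1 (20% of all genes higher) the counts were 15 of 35 higher and 1 lower in complex I, 0 of 9 in complex III, 6 of 11 higher in complex IV and 6 of 15 higher in complex V, with list medians from 0.09 to 0.24 where the mitochondrial members had 0.62. Cox5a was higher by 0.93 ± 0.12. For complex III no nuclear subunit passed by edgeR (2 at an unadjusted p under 0.05), with a list median of 0.13, while mt-Cytb was higher by 0.62 ± 0.09. Without Jdp2 (9.13% of all genes lower), 15 of 35, 2 of 9, 5 of 11 and 1 of 15 were lower, the count for complex V being below the share of all genes, with list medians from -0.29 to -0.13, led by Ndufb6 (-0.57 ± 0.17) and Cox6a1 (-0.55 ± 0.15). On day 3 against day 0 (13.7% of all genes higher), 9 of 35, 5 of 9, 3 of 11 and 5 of 15 nuclear subunits were higher, with list medians from 0.28 to 0.45.

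Genes that transcribe mitochondrial DNA were called no more often than all genes without Esrrb, Glis1 and Sall4. Of 11 in this list, 2 were higher without Esrrb (20.9% of all genes), Tfam (0.36 ± 0.10) and the ribosomal RNA methyltransferase Tfb1m (0.60 ± 0.21). Without Sall4, Tfam was lower (-0.48 ± 0.11) and Polrmt higher (0.24 ± 0.08), and without Jdp2 Polrmt was lower (-0.27 ± 0.08), 1 of 2 genes lower there (9.13% of all genes). Mterf4, a factor of mitochondrial ribosome assembly, was higher without Sall4 by 2.45 ± 0.20 (173.7 CPM against 32.2) and lower without Jdp2 by -1.76 ± 0.26. No gene of this list passed without Glis1 by edgeR, and 0 had an unadjusted p under 0.05.

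Of 12 genes for replication and upkeep of mitochondrial DNA, 5 were higher without Esrrb (20.9% of all genes) and 5 lower without Sall4 (19.5%), each opposite to the mitochondrial transcripts of that arm. They include the primase Primpol (0.88 ± 0.21 and -0.95 ± 0.24) and the nuclease Exog (0.73 ± 0.18 and -0.53 ± 0.19), while 2 of the 12 were higher without Sall4. Without Glis1, Top1mt, a mitochondrial topoisomerase, was higher (0.42 ± 0.15) and Polg, the replicative polymerase, lower (-0.30 ± 0.09), and without Jdp2 Top1mt was lower (-0.44 ± 0.16). The copy number of mitochondrial DNA was not measured here.

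Among 19 genes of mitochondrial RNA processing and stability, 5 were lower and 2 higher without Esrrb (21.9% and 20.9% of all genes), 6 higher without Glis1 (20%), 2 lower without Jdp2 (9.13%), and 2 higher and 2 lower without Sall4 (22.3% and 19.5%). These counts are near or below the shares of all genes except for the 6 without Glis1. Lrpprc, which stabilises mitochondrial messenger RNA, was lower without Esrrb (-0.48 ± 0.10) and Jdp2 (-0.30 ± 0.09) and higher without Glis1 (0.33 ± 0.09) and Sall4 (0.46 ± 0.09). Rexo2, a mitochondrial oligoribonuclease, was lower without Esrrb (-0.69 ± 0.20) and higher without Glis1 (0.67 ± 0.18). Of 10 nuclear regulators, Esrra, an orphan receptor that drives respiratory genes, was lower without Esrrb (-0.99 ± 0.13) and higher without Sall4 (0.96 ± 0.12). Ppara, a receptor for fatty acids, was higher without Glis1 by 5.14 ± 0.31 (31.6 CPM against 1.93). In all, 2 of these 10 were higher and 3 lower without Esrrb (20.9% and 21.9% of all genes). Without Glis1, 2 were higher and 1 lower (20% and 16.3%), and without Jdp2, 2 were lower (9.13%). Without Sall4, 4 were higher and 4 lower (22.3% and 19.5%). The 2 higher without Esrrb and without Glis1 are close to the share of all genes, and the 1 lower without Glis1 is below it.

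Of 10 genes that stand for the amount of mitochondria, 5 were lower without Esrrb (21.9% of all genes), 3 higher without Glis1 (20%), 1 lower without Jdp2 (9.13%, about the share of all genes) and 5 higher without Sall4 (22.3%). Over days the same list did not follow the mitochondrial genes. On day 3 against day 0, 2 were higher (13.7% of all genes). On day 7 against day 0, 4 were lower and 1 higher (11.8% and 15.9% of all genes), with a median of -0.30. The common slope was downward for 6 and upward for 1 (15.8% and 15.4% of all genes). The list includes Vdac1, the outer membrane channel (-0.77 ± 0.08, 0.34 ± 0.08 and 0.49 ± 0.08 without Esrrb, Glis1 and Sall4), and Cs, citrate synthase (-0.48, 0.19, -0.27 and 0.56 without Esrrb, Glis1, Jdp2 and Sall4). In such bulk samples, fewer cells of a type and less RNA per cell cannot be told apart.

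**Figure D5:**
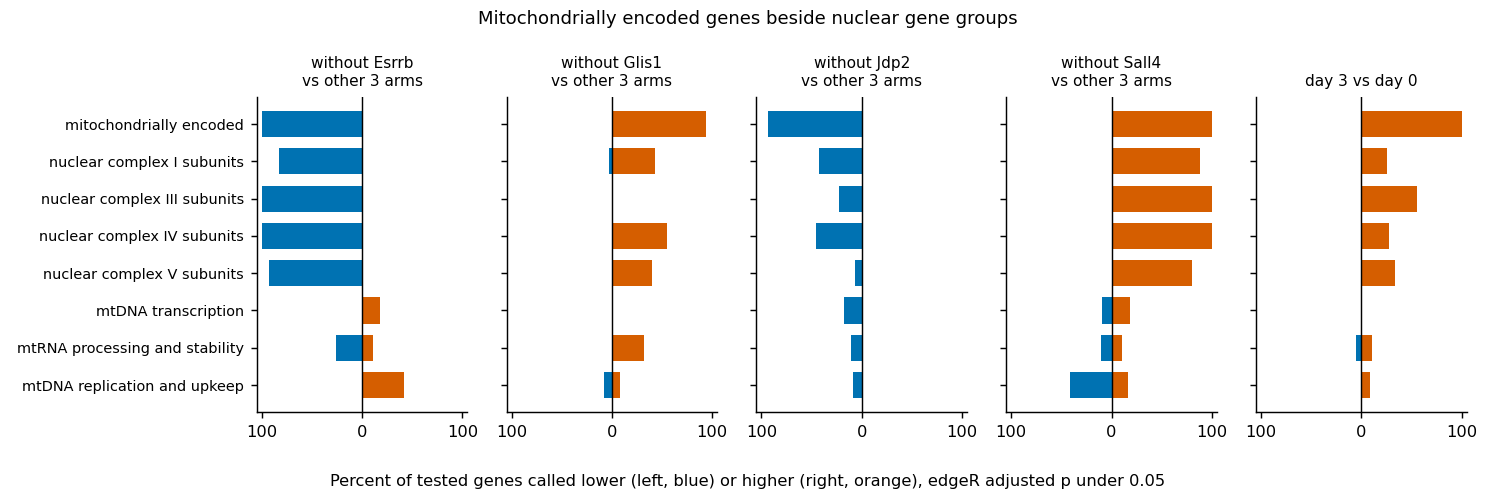
Percent of tested genes called higher (right) or lower (left) by edgeR for the mitochondrially encoded genes (15 tested, copies added) and 7 nuclear lists, in each leave-out arm against the other 3 and on day 3 against day 0. The nuclear subunits point the same way as the mitochondrial genes in the 4 arms, except for 1 lower complex I subunit without Glis1, and no complex III subunit was called there.

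Other measures differed between the same arms. The summed level of the delivered factors had a median of 13550 CPM without Glis1 and 8368 without Sall4, against 4138 without Esrrb, 4271 without Jdp2 and 4709 in JEGS. The 4 epithelial markers (Epcam, Cdh1, Krt8 and Krt18, none at 0 in any arm) had a summed median of 293.9 CPM without Esrrb and 598.0 without Jdp2 against 142.7 without Glis1, 118.4 without Sall4 and 245.9 in JEGS, with ranges over days of 118.6 to 632.9, 87.9 to 741.1, 28.1 to 262.5, 29.6 to 138.3 and 169.2 to 299.0. The 4 macrophage markers had summed medians of 17.4 CPM without Glis1 (range 9.61 to 22.5) and 12.1 without Sall4 (6.77 to 17.2) against 6.44 without Esrrb (2.30 to 19.7) and 5.24 without Jdp2 (3.17 to 8.08). In JEGS they ranged from 0.77 to 8.40 CPM, with Adgre1 at 0. The 4 endothelial markers, none at 0, had summed medians of 127.0, 82.2, 77.8, 24.1 and 37.1 CPM without Esrrb, Glis1, Jdp2 and Sall4 and in JEGS. The part of any of these in the differences of mitochondrial RNA was not tested. Muscle markers, a tissue rich in mitochondrial RNA, were at 13.3 CPM or less in sum in every library (4 genes), with Myod1 at 0 in 3 arms.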

How the data were processed

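For every library the authors made estimated counts (RSEM's expected counts) per gene, and the deposited tables also hold TPM, FPKM (not tested here) and transcript and effective lengths, per the file headers. The submitters' processing notes name bcl2fastq, Bowtie2, RSEM and mm10, with no versions; the annotation release and any use of strand are not given in the sources used here. All 37 member lengths equal GENCODE vM21, from which sequences and positions came. Nuclear copies were genes with at least 50% of their 40-base words in a mitochondrial gene.

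Estimated counts were rounded and fitted with edgeR 4.0.16 (R 4.3.3), by its two-sided quasi-likelihood F test on TMM-scaled libraries. Each standard error was derived from that test, as the size of the log2 difference divided by the square root of F. Genes needed 1 CPM in 3 libraries, and Benjamini-Hochberg adjustment ran over all genes of a contrast (threshold 0.05). Fits used the 32 leave-out libraries with arm and day as factors, the 15 libraries of days 2, 4 and 6, and a day slope per arm. The scripts were tested on simulated counts. CPM values are TMM scaled, and shares carry no test.

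All messenger and ribosomal RNA members were named, the 2 members with the widest slope difference per arm, and from each other list at most the 3 largest called changes per leave-out contrast, with the value of such a gene in another contrast beside it. Transfer RNAs could not be ranked. Members and lists were chosen with earlier results of these data known. In the RNA processing list 19 of 20 symbols matched. Alternatives were DESeq2 1.42.0 (its Wald test, and its size factors in edgeR), limma 3.58.1 on log2(TPM + 1), no filter, no day term, days 3 to 7 only, log2(day + 1), all 35 libraries, library sizes without mitochondrial genes, and each library left out. Joined copies, pairs of arms, JEGS against single arms and single days against day 0 were added after seeing the data. Samples beyond these 35 were not analysed here. Files were read in Python 3.11.15 (pandas 2.3.3, numpy 2.4.6) and plots drawn in matplotlib 3.10.9.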

Additional observations from a re-analysis of the deposited data

Results flagged for a closer look

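In 92 sets of 8 libraries (each gene in each leave-out arm, and the share of each arm), 2 had a library far from the other 7; chance alone gives about 1 in 20. mt-Co2 as deposited was at 142.1 CPM on day 1 without Esrrb and at 0 on the other 7 days; with its copy the day 1 value was 3746 CPM, between those of days 0 and 2. mt-Nd3 as deposited was at 42.99 CPM on day 0 without Sall4, with the next value at 280.5 CPM. In that library 68.5% of the pair's counts stood under Gm28438, the highest share of the 35 libraries, and the level with the copy was 136.8 CPM.

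The day slope of mt-Co2 as deposited differed between the arm without Esrrb and the others by -2.87 log2 units per day, by the test of the difference itself.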

How the results depend on the processing

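The 4 leave-out counts kept their direction under every alternative run. With library sizes taken without mitochondrial genes they were unchanged, at 12, 9, 9 and 12 for Esrrb, Glis1, Jdp2 and Sall4. Without the day term the Jdp2 count was 5. With nuclear copies added, Glis1 and Jdp2 each gave 14. Leaving out each library gave 10 to 12 for Esrrb, 9 to 10 for Glis1, 9 to 11 for Jdp2 and 9 to 12 for Sall4. For JEGS against the mean the count was 3 with the DESeq2 Wald test (3 higher: mt-Nd1, mt-Co2 and mt-Nd4l). With no filter it was 3 (mt-Co2 and mt-Nd4l higher, mt-Atp6 lower). On leaving out each library it was 0 to 1, the 1 (mt-Nd4l) without the day 2 library lacking Jdp2. All of these except mt-Nd1 are divided genes as deposited. The common slope count was 9 with DESeq2, 9 with limma and 11 on log2(day + 1), 3 to 9 on leaving out each library, and 9 on days 3 to 7, with 8 of them downward. The Esrrb slope count was 0 with copies, 0 with limma and 0 on days 3 to 7, and 0 to 1 on leaving out each library. The Jdp2 slope count was 1 with DESeq2, and 0 to 0 on leaving out each library, as for the Glis1 and Sall4 slopes. The cause of these changes was not tested.

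On the sum with copies, signs changed for mt-Co3 (-0.51 without Esrrb, 0.37 without Sall4), mt-Nd4l (0.39 without Glis1, -0.29 without Jdp2) and the common slope of mt-Co2 (0.07). On days 3 to 7 the common slopes became -0.13 for mt-Nd1, -0.11 for mt-Nd2, -0.04 for mt-Co1, -0.10 for mt-Atp8, -0.13 for mt-Nd4, -0.14 for mt-Nd5, -0.13 for mt-Nd6, -0.16 for mt-Cytb and -0.16 for mt-Nd4l. Mean shares in the arms without Esrrb, Glis1, Jdp2 and Sall4 and in JEGS were 6.84%, 11.1%, 7.05%, 9.86% and 10.1% of TPM, and 4.33%, 7.21%, 4.36%, 6.36% and 6.55% of counts with copies. The JEGS means cover days 2, 4 and 6 only. On those days the 4 leave-out arms, in the same order, had means of 7.52%, 11.61%, 7.85% and 10.96% of TPM. No paired analysis was possible because the labels give no replicate numbers; matching by day was already part of the fit, with day as a factor, and the counts without it are those given for no day term (10, 9, 5 and 9 for Esrrb, Glis1, Jdp2 and Sall4).

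Limits: 1 library per arm and day; divided reads of 7 genes; transfer RNAs not measurable; mt-Atp8 poorly scaled per length; kits and runs not assigned.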
